A study of Mus musculus with 28 samples.

Results

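Cxcl9, Cxcl10 and Cxcl11 are the 3 chemokine genes known for their induction by interferons, and they were followed through all 28 RNA libraries of a study of mouse bone marrow-derived macrophages. The members were the rows that carry these symbols, 3 of 36806 genes in each of the 6 tables (33411 distinct symbols). Each symbol occurred once per table, and no member had a status other than OK in any library.

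The 3 proteins are small secreted CXC chemokines that share 1 receptor, CXCR3, which is found mainly on activated T cells and natural killer cells. Macrophages make them after bacterial lipopolysaccharide (LPS), which TLR4 senses, and after interferons. One arm of TLR4 signalling acts through NF-kB. The other acts through IRF3 and interferon beta, whose receptor acts through JAK kinases on factors that bind the interferon-stimulated response element (ISRE). Cxcl9 is classed as the most dependent on interferon gamma, whose response element is the gamma-activated site (GAS).

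The promoters of Cxcl9 and Cxcl10 are shown so that the elements named above can be looked for in them. Both are RefSeq sequences of the 250 bases before the annotated start, on the minus strand of GRCm38.p6, at chr5:92328080-92328329 for Cxcl9 and chr5:92348890-92349139 for Cxcl10. RefSeq promoters were matched for these 2 of 3 members. Capitals mark matches to the motifs searched on both strands: the ISRE core GAAANNGAAA, the GAS TTCNNNGAA, the NF-kB consensus, and a run of the core promoter, ATAAATA, that was chosen after the sequences were seen.
Cxcl9: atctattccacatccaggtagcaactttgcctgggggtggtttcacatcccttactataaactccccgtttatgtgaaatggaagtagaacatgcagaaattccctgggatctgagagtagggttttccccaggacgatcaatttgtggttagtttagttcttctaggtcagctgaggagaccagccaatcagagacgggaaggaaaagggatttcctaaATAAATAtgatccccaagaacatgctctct
Cxcl10: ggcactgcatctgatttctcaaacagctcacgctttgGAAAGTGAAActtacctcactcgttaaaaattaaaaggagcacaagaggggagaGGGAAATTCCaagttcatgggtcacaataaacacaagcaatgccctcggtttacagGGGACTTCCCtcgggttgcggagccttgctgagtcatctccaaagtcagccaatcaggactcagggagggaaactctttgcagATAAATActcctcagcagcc
The Cxcl10 window held 1 ISRE match, GAAAGTGAAA, at -213 to -204 from the start. It also held 2 NF-kB matches, GGGAAATTCC at -159 to -150 and GGGACTTCCC at -103 to -94. The Cxcl9 window matched neither of these, and neither window matched the GAS. ATAAATA stood at -30 to -24 in Cxcl9 and at -20 to -14 in Cxcl10. Among 32851 promoter windows of the same length, 2.98% held the ISRE core, 3.9% the NF-kB consensus, 7.02% the GAS and 5.17% ATAAATA. The matches did not overlap each other. They describe letters in a window and do not show binding. A search for exact letters misses variants, so the lack of a match does not show that an element is absent.

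In the tables, which use the mm9 build, Cxcl9 (ENSMUSG00000029417) had a locus of its own at chr5:92750356-92757105. Cxcl10 (ENSMUSG00000034855) and Cxcl11 (ENSMUSG00000060183) were given 1 shared entry, chr5:92760852-92843654, together with Art3 and Gm2673. RefSeq lists Cxcl9 and Cxcl10 as protein coding and Cxcl11, in its C57BL/6J assembly, as a transcribed pseudogene. The macrophages here were of another strain.

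The cells were grown from bone marrow of FVB/Hsd mice, infected with a retroviral vector, selected with puromycin and used on day 7 of differentiation. All groups carried such a vector. Wdr82, a subunit of the SET1 methyltransferase complexes, was targeted by hairpin sh1137 with an empty vector (LMP) as control in 3 sets. One was unstranded 4sU RNA, untreated or given LPS at 10 ng/ml for 45 min, 2 h or 4 h. Another was stranded 4sU RNA, untreated or 1 h into LPS, and the other polyA RNA of untreated and 4 h cells, also unstranded. Below, the unstranded set is the 4sU one. A further set compared sh1137 with a scrambled hairpin after 45 min of LPS in stranded 4sU RNA, without and with DRB, which blocks elongation by RNA polymerase II. The last 2 sets, Set1a+Set1b hairpins and a Pnuts hairpin, each had a scrambled control and stranded 4sU libraries, untreated or with LPS for 45 min. RNA labelled with 4-thiouridine (4sU) for the 45 min before harvest is enriched in new transcripts, whereas polyA RNA is the standing pool of mature messages.

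Each condition had 1 library per set, so a ratio between 2 libraries has no replicate check. Levels are FPKM, a fragment count per transcript length and library size, and the depth of the libraries is unknown. Differences are log2 ratios of FPKM + 1 within a table. A gene entered a ratio when it reached 1 FPKM in either library with status OK in both, and a change of at least 2-fold was counted as higher or lower. The bounds given beside a level are the deposited ones, whose confidence level is not given in the sources used here. A limma fit with a term for the condition and one for the vector was also run on each table, so that the conditions or the vectors stand in for repeats. Whether a library was a separate culture is not stated, and the p-values measure only the spread around that additive fit.

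The libraries had 11533 to 13799 genes at 1 FPKM or more. The commonest ratio between low FPKM values of 2 libraries, a rough proxy for relative depth, varied by 1.59- to 3.34-fold within a set. Wdr82 was lower in all 10 sh1137 libraries than in their controls, by log2 ratios of -0.72 to -2.23. In the Set1a+Set1b set the log2 ratio of Setd1a was -0.11 and -0.40, and that of Setd1b was 0.06 untreated and -0.58 after LPS. Ppp1r10, which encodes Pnuts, was higher in the libraries labelled Pnuts hairpin, with log2 ratios of 0.68 and 0.70, so directions in that set refer to the labels. With an empty vector as control, the targeting of Wdr82 cannot be told apart from carrying a hairpin, and sh1137 is 1 sequence. Of the macrophage markers, 9 of 9 reached 1 FPKM in every set, with a summed level of 2186 to 12985 FPKM.

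Cxcl10 was the most abundant of the 3 in 28 of 28 libraries, on the FPKM scale, which is per length. It made up 93.5 to 100% of their summed FPKM. In untreated 4sU RNA its 8 levels ran from 1.60 to 22.1 FPKM with a median of 3.97. The same 8 libraries gave 0 to 0.372 FPKM for Cxcl11 and 0 to 0.109 for Cxcl9, so untreated Cxcl10 did not overlap with either. Cxcl11 came next and Cxcl9 was lowest in 22 libraries. Cxcl9 was above Cxcl11 in 4, which were both DRB libraries, where Cxcl11 was listed at 0, and the sh1137 libraries after 4 h of LPS in 4sU and polyA RNA. In the remaining 2 libraries both were listed at 0. These orders are a description, with no test.

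**Figure D1:**
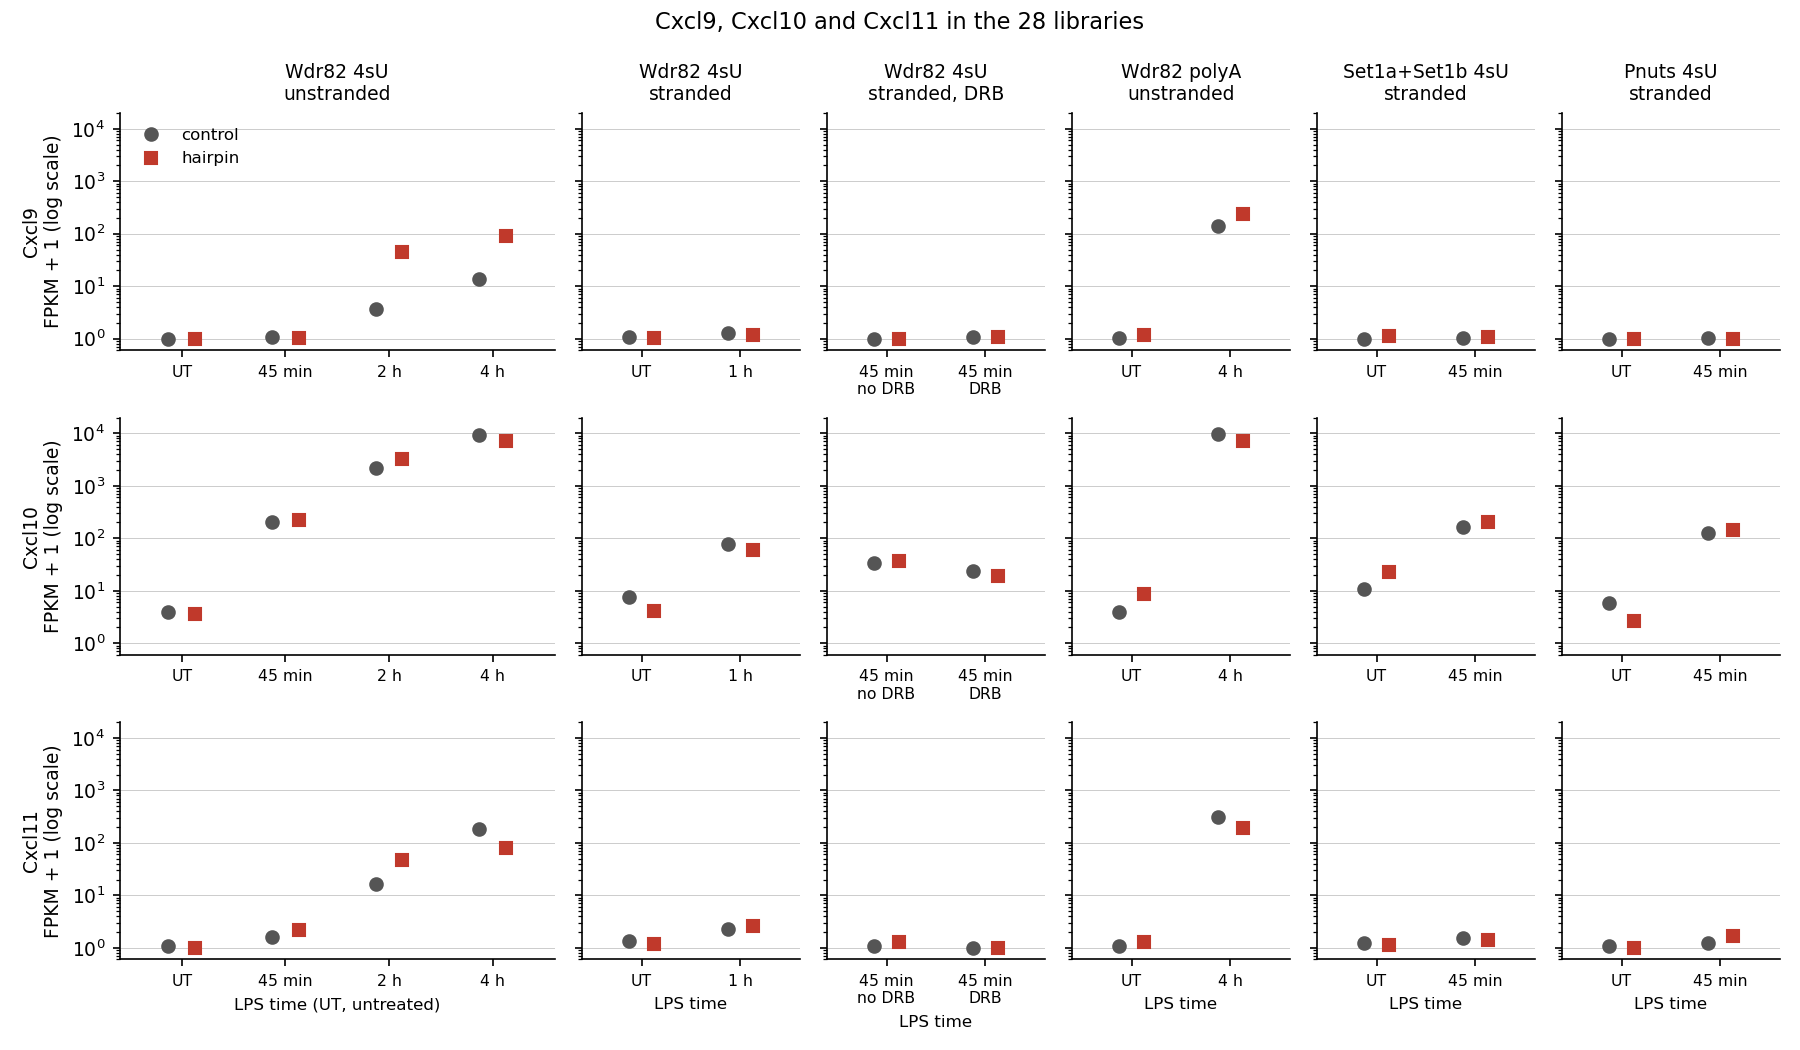
FPKM + 1 of Cxcl9, Cxcl10 and Cxcl11 (rows, log scale) in the 28 libraries, arranged by set (columns) and condition, with controls as grey circles and hairpin libraries as red squares. Each point is 1 library. Cxcl10 lies above the other 2 genes throughout, and Cxcl9 and Cxcl11 leave the floor only after 2 h or 4 h of LPS, apart from values of Cxcl11 up to 1.60 FPKM at earlier times.

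In the unstranded 4sU set all 3 genes rose with LPS, and they passed the limma test at different times. Cxcl10 passed at 45 min, when its FPKM in the control was 70.2 times the untreated one, Cxcl11 passed at 2 h and Cxcl9 at 4 h. For Cxcl9 at 2 h the log2 ratios to untreated were 1.89 in the control and 5.52 with sh1137, both over 2-fold. The fit counts such a gap between vectors as error, so the time of a first pass is not a time of onset. Whether the members differ in timing was not tested. Fewer cells that make a transcript and less of it per cell cannot be told apart in such bulk RNA.

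Cxcl10 RNA stood at 2.95 FPKM without LPS in the control, then at 207, 2175 and 9156 FPKM after 45 min, 2 h and 4 h. With sh1137 the same series was 2.61, 226, 3200 and 7155 FPKM. Every step was upward in both vectors. The sh1137 level was below the control without LPS, above it at 45 min and 2 h, and below it at 4 h. In the limma fit Cxcl10 rose by 5.85 on the log2 scale at 45 min (SE 0.24, adjusted p = 0.0023), by 9.45 at 2 h (adjusted p = 0.0011) and by 11.06 at 4 h (adjusted p = 0.00033). The genes called higher made up 2.97% of the 16106 tested at 45 min, 13.5% at 2 h and 25.8% at 4 h, and those called lower 1.33%, 8.28% and 15.2%. The 693 calls at 45 min became 198 without the 2 h libraries and 296 without the 4 h ones, and the 3501 at 2 h became 2294 without the 45 min ones. Cxcl10 kept an adjusted p of 0.0098 to 0.011 at 45 min in limma. The deposited bounds at 4 h ran from 0 to 36823 FPKM in the control, so the level itself is loosely fixed.

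Cxcl11 stood at 0.0603 FPKM in untreated control cells, then 0.612, 15.2 and 182 at the 3 times. With sh1137 it was listed at 0, then 1.15, 46.3 and 80.5 FPKM. The level climbed at each time in both vectors, and sh1137 was above the control at 2 h and below it at 4 h. In the limma fit Cxcl11 rose by 4.75 at 2 h (adjusted p = 0.013) and by 6.89 at 4 h (adjusted p = 0.0023). At 45 min its estimate was 0.86 (adjusted p = 0.49).

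Cxcl9 was listed at 0 in both untreated libraries. In the control it reached 0.100 FPKM at 45 min, 2.70 at 2 h and 12.9 at 4 h, and with sh1137 0.0426, 44.8 and 87.9. The 2 vectors were close at 45 min and far apart from 2 h on. In the limma fit Cxcl9 rose by 5.13 at 4 h (SE 1.07, adjusted p = 0.020). Its estimate was 3.70 at 2 h (adjusted p = 0.073) and 0.10 at 45 min (adjusted p = 0.98). The call at 2 h depended on the pseudocount: with 0.1 FPKM in place of 1 the limma estimate was 6.81 (adjusted p = 0.036).

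**Figure D2:**
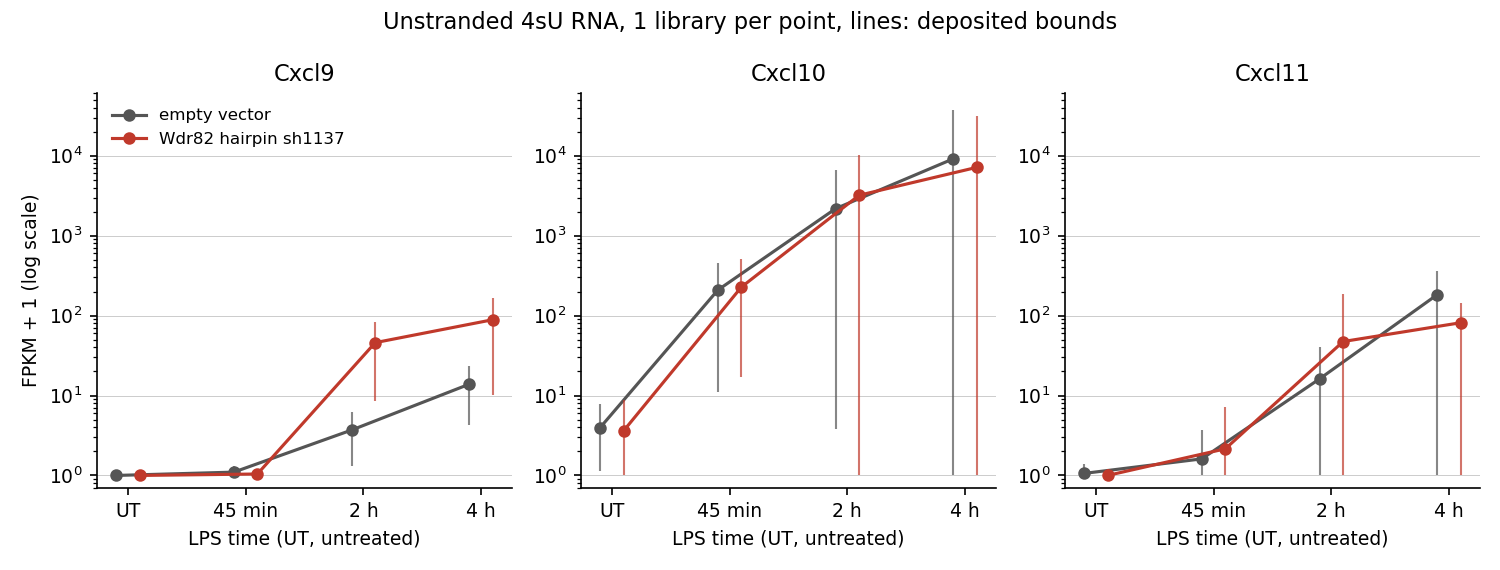
FPKM + 1 (log scale) of each chemokine in unstranded 4sU RNA against LPS time, with the empty vector in grey and sh1137 in red. Points are single libraries and vertical lines their deposited bounds: those of Cxcl10 at 4 h reach down to 0, while those of Cxcl9 at 2 h do not meet between the vectors.

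Cxcl10 was at least 2-fold higher after LPS in 14 of 14 pairs of libraries, by log2 ratios of 3.11 to 11.24. Of all genes, 5.96%, 11.5% and 20.3% were at least 2-fold higher at the 3 times of the unstranded set in the control and 8.71%, 13.1% and 21.1% with sh1137. The shares were 4.22% and 4.47% in the stranded set, 18.7% and 16% in polyA RNA, 5.56% and 6.17% in the Set1a+Set1b set, and 5.68% and 8.41% in the Pnuts set. The pairs include all 6 LPS comparisons of the unstranded set, which share their untreated library within a vector. In the shorter stranded treatments Cxcl10 went from 6.61 to 75.6 FPKM in control cells after 1 h. In the Set1a+Set1b set it went from 9.75 to 164 in the scrambled control after 45 min, and in the Pnuts set from 4.82 to 126. The limma fits of these 3 sets, each with 1 residual degree of freedom, called 0 genes for LPS. Unadjusted p was under 0.05 for 2127, 3674 and 3327 genes, and the adjusted p of Cxcl10 in limma was 0.10, 0.084 and 0.10.

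Cxcl11 and Cxcl9 scarcely left the floor in those early treatments. Cxcl11 was highest after 1 h of LPS, at 1.304 FPKM in the control and 1.60 with sh1137. In the Set1a+Set1b and Pnuts sets it stayed at or below 0.675 FPKM, and Cxcl9 at or below 0.109. Cxcl11 entered 9 of the 14 LPS ratios and was at least 2-fold higher in 8. Cxcl9 entered 6, all from 2 h or 4 h of LPS, and was at least 2-fold higher in 6.

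After 4 h of LPS the polyA libraries held all 3 messages. Cxcl10 went from 2.98 to 9611 FPKM in the control and from 7.60 to 7177 with sh1137. By FPKM it then ranked 6 among all genes of the control library and 10 in the sh1137 library. Its log2 ratio in the control, 11.24, was the highest of all genes tested in that pair. Cxcl11 went from 0.0616 to 313 FPKM in the control and from 0.284 to 191 with sh1137. Cxcl9 went from 0.0532 to 141 and from 0.189 to 237. In the limma fit the LPS effect was 10.47 for Cxcl10 (adjusted p = 0.0068), 7.71 for Cxcl11 (adjusted p = 0.0067) and 7.36 for Cxcl9 (adjusted p = 0.0059). Of 12899 genes, 22.1% were called higher and 11.9% lower (2849 and 1532, or 2425 and 2123 when centred on the median gene). Without the filter on low FPKM no gene was called, and the limma adjusted p of the 3 was 0.0583 to 0.0586.

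The polyA and 4sU libraries at 4 h can only be set side by side, since the tables were scaled separately. In the control Cxcl10 was at 9156 FPKM in 4sU RNA and at 9611 in polyA RNA. Cxcl9 was at 12.9 in 4sU RNA and 141 in polyA RNA, and Cxcl11 at 182 and 313. Within the control library, Cxcl10 was 711 times the level of Cxcl9 in 4sU RNA and 68.2 times in polyA RNA. With sh1137 those 2 quotients were 81.4 and 30.3.

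The sh1137 hairpin went with a higher level of Cxcl9 late in the response, and with ratios of both signs for Cxcl11 and Cxcl10. Over the 4 conditions of the unstranded set none of the 3 passed the limma test. The hairpin effect was 1.56 for Cxcl9 (SE 0.76, adjusted p = 0.24), 0.18 for Cxcl11 (SE 0.46, adjusted p = 0.82) and 0.05 for Cxcl10 (SE 0.17, adjusted p = 0.87). Of the 16106 genes, 3.72% were called higher and 3.22% lower, 1117 in all, and 0 to 2 when the libraries of any 1 condition were left out. The effect was taken to be the same at each condition, and for Cxcl9 and Cxcl11 the single pairs differed widely.

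Cxcl9, the ligand most tied to interferon gamma, was at 2.70 FPKM in the control and 44.8 with sh1137 after 2 h. The deposited bounds were 0.298 to 5.14 and 7.46 to 82.2 and did not overlap. The log2 ratio of 3.63 was above that of 99.3% of genes tested, and the plain FPKM differed 16.6-fold. In that pair 6.88% of genes were at least 2-fold higher, 0.457% with bounds apart. After 4 h the log2 ratio was 2.68, in a pair with 7.04% of genes at least 2-fold higher, and the bounds of 3.29 to 22.6 and 9.07 to 167 overlapped. In polyA RNA at 4 h the log2 ratio was 0.74, under 2-fold. In the other 11 hairpin pairs Cxcl9 was under 1 FPKM in both libraries and entered no ratio.

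Cxcl11 was higher with sh1137 at 2 h and lower at 4 h. At 2 h it was at 15.2 FPKM in the control and 46.3 with sh1137, a log2 ratio of 1.55. At 4 h it was at 182 and 80.5, a log2 ratio of -1.17, in a pair where 3.78% of genes were at least 2-fold lower. In polyA RNA at 4 h the direction was the same as in 4sU RNA, with 313 and 191 FPKM and a log2 ratio of -0.71. At 45 min and 1 h the log2 ratios were 0.42 and 0.17. In all 5 pairs the bounds overlapped, with lower bounds at 0.

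Cxcl10 entered all 14 hairpin ratios, 7 of them above 0 and 7 below. In the 10 Wdr82 pairs it was above 0 in 4 and below in 6, between -0.89 and 1.11. The highest was untreated polyA RNA, at 2.98 FPKM in the control and 7.60 with sh1137, where 3.08% of genes were at least 2-fold higher. The lowest was untreated stranded 4sU RNA, at 6.61 and 3.11. Untreated unstranded 4sU RNA gave 2.95 and 2.61, so the 3 untreated sets did not share a direction. After LPS the log2 ratios also had both signs. At 45 min they were 0.12 in the unstranded set, 0.15 in the DRB set without DRB and -0.32 with it. They were -0.33 at 1 h, 0.56 at 2 h, and -0.36 and -0.42 at 4 h in 4sU and polyA RNA. The bounds overlapped in all 14 pairs.

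**Figure D3:**
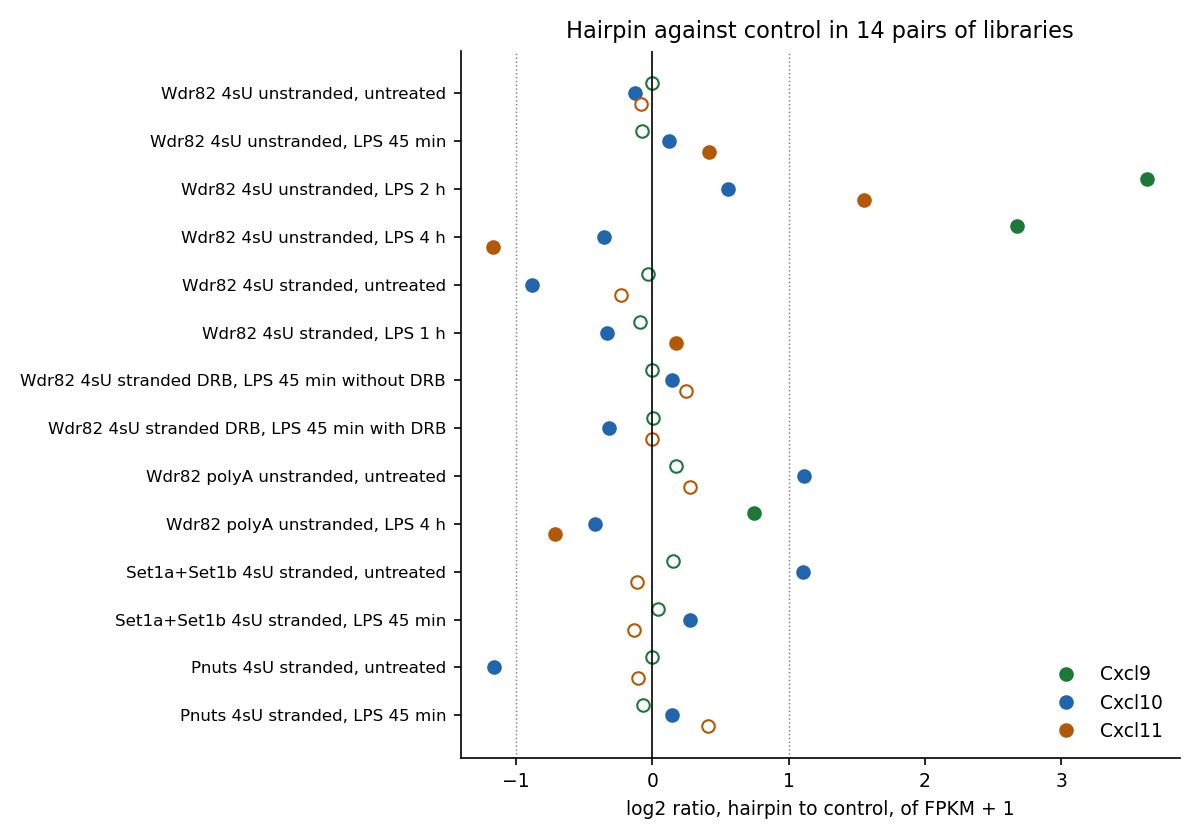
Log2 ratio of FPKM + 1, hairpin to control, of Cxcl9 (green), Cxcl10 (blue) and Cxcl11 (brown) in the 14 pairs of libraries. Open circles are pairs in which neither library reached 1 FPKM, and dotted lines mark 2-fold. Cxcl9 at 2 h and 4 h of LPS in unstranded 4sU RNA lies farthest to the right, at 3.63 and 2.68.

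Together the 3 members had reached a larger part of their 4 h level by 2 h with sh1137 than with the empty vector. In the control the 2 h level was 21.0% of the 4 h level for Cxcl9, 23.8% for Cxcl10 and 8.33% for Cxcl11. With sh1137 it was 51.0%, 44.7% and 57.6%. From 2 h to 4 h the log2 step was 1.91, 2.07 and 3.50 in the control (13.4% of all genes were at least 2-fold higher), and 0.95, 1.16 and 0.78 with sh1137 (12.2%). From 45 min to 2 h the steps were 1.75, 3.38 and 3.32 in the control and 5.46, 3.82 and 4.46 with sh1137. Of the genes tested, 9.33% and 9.25% were at least 2-fold higher over that step.

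The sh1137 to control ratio was higher at 2 h than at 4 h for 43 of 44 interferon-stimulated genes, against 53.3% of 13256 genes tested at both times, and the median difference was 0.71 against 0.03. Among inflammatory LPS genes it was 16 of 18, among NF-kB factors and their feedback genes 10 of 10, and among macrophage markers 4 of 9. For the members the difference between the 2 log2 ratios was 0.95 for Cxcl9, 0.91 for Cxcl10 and 2.72 for Cxcl11. The last was above 99.5% of all genes. For the members they equal the gap between the vectors in the step from 2 h to 4 h given above, so they are not a further observation. All these differences rest on 4 libraries and were not tested.

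**Figure D4:**
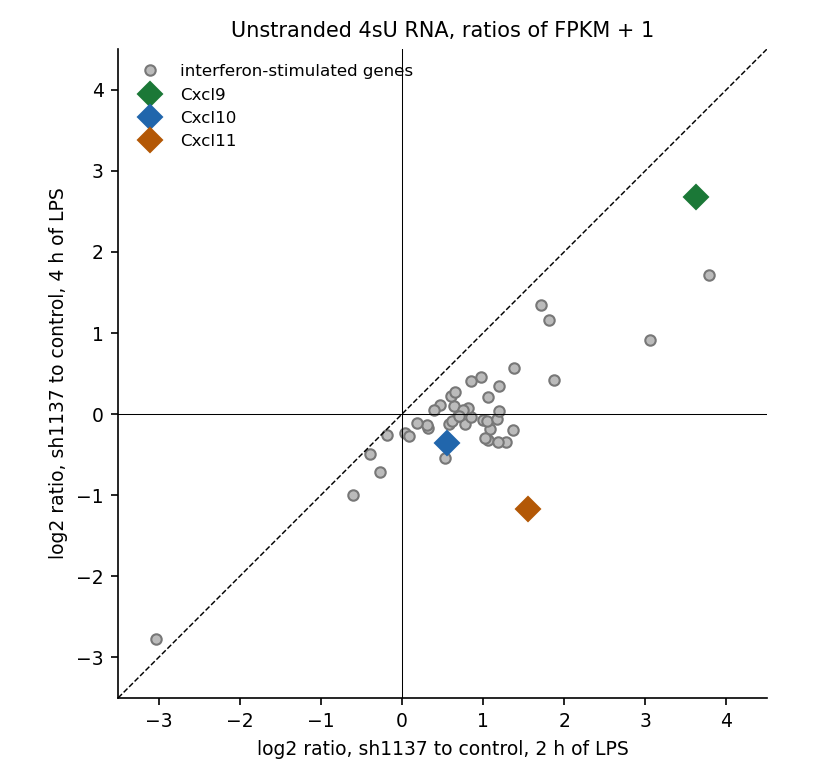
Log2 ratio, sh1137 to control, of FPKM + 1 at 4 h of LPS (vertical) against that at 2 h (horizontal) for the 3 chemokines (diamonds) and 44 interferon-stimulated genes (grey circles), in unstranded 4sU RNA. All but 1 circle and all 3 diamonds lie below the dashed line of equal ratios.

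The Set1a+Set1b hairpins went with 22.1 FPKM of Cxcl10 in untreated cells against 9.75 in the scrambled control, a log2 ratio of 1.11. In that pair 3.08% of genes were at least 2-fold higher. After 45 min of LPS the 2 levels were 199 and 164. The library labelled Pnuts hairpin had 1.60 FPKM in untreated cells against 4.82, a log2 ratio of -1.16, where 2.89% of genes were at least 2-fold lower. After LPS it had 140 against 126. So the untreated levels differed in opposite directions in these sets, and the LPS levels lay within 1.21-fold of their controls. The summed neutrophil markers were 11.7 to 17.5 FPKM in the controls and 36.3 to 45.5 with the Set1a+Set1b hairpins, and 26.8 to 32.2 and 14.5 to 16.0 in the Pnuts set, with 6 of 10 genes reaching 1 FPKM in each and Ly6g at 0 in the latter. The macrophage markers summed to 3748 to 5658 and 6030 to 9455 FPKM in the former set, and to 3741 to 5560 and 7487 to 10368 in the latter. Neither list overlapped between controls and hairpins in either set, and nor did the dendritic cell and B cell lists. Each range spans only an untreated and an LPS library, and no share over all genes was computed. The part of these lists in the Cxcl10 levels was not tested. No hairpin effect passed limma in either set or in the stranded, DRB and polyA Wdr82 sets. These 5 fits called 0 genes for the hairpin, with unadjusted p under 0.05 for 1365 to 3275 genes.

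DRB was given to cells that also received LPS for 45 min. Cxcl10 was at 32.2 FPKM without and 22.4 with DRB in the scrambled control, and at 35.7 and 17.8 with sh1137. It was lower with DRB in both vectors, by log2 ratios of -0.50 and -0.96, in pairs where 16% and 15.9% of genes were at least 2-fold lower. The median gene had ratios of 0.16 and 0.18. In limma the DRB effect on Cxcl10 was -0.73 (SE 0.21, adjusted p = 0.074), and limma called 17% of 14045 genes higher and 15.3% lower. Cxcl9 and Cxcl11 stayed under 0.3 FPKM in all 4 libraries and entered no ratio.

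The receptor of these ligands was scarce in the macrophages. Cxcr3 ran from 0.17 to 2.45 FPKM in the unstranded 4sU set and was lower in the sh1137 library at each of the 4 conditions. It fell by 0.64 on the log2 scale at 2 h of LPS (limma, adjusted p = 0.049) and by 1.20 at 4 h (adjusted p = 0.0052), where 8.28% and 15.2% of genes were called lower. Its hairpin effect was -0.40 (limma, adjusted p = 0.094). Dpp4, a protease that trims the chemokines, reached at most 2.13 FPKM in that set.

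In the list of interferon ligands, which also held Il27 and Il12b, not interferon genes themselves, 4 of 16 genes entered the limma fit. Of these 4, 1 was called higher at 45 min of LPS, 4 at 2 h and 4 at 4 h. Of all genes tested, 2.97%, 13.5% and 25.8% were called higher at these times. Ifnb1, interferon beta, was listed at 0 untreated. It was at 5.79 FPKM in the control and 8.61 with sh1137 at 45 min, 25.3 and 46.3 at 2 h, and 7.05 and 20.6 at 4 h. It peaked at 2 h in both vectors, before the highest levels of the 3 chemokines, and was named after its values were seen. Ifng was listed at 0 in all 28 libraries. Il27, a cytokine subunit gene, was at 76.3 and 50.2 FPKM at 2 h and at 329 and 108 at 4 h. Il12b was at 207 and 161 at 2 h and at 310.5 and 104.5 at 4 h, so both were lower with sh1137, unlike Ifnb1 and Cxcl9.

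Limma called 1 of 10 receptor and JAK-STAT genes higher at 45 min, 7 at 2 h and 8 at 4 h, beside 2.97%, 13.5% and 25.8% of all genes. Of the genes on the route from TLR4 to interferon, 3 of 11 were called higher at 45 min, 8 at 2 h and 7 at 4 h. Stat2 was at 39.5 and 51.9 FPKM at 2 h and at 252 and 191 at 4 h. Irf1 was at 43.3 FPKM untreated and 564 at 45 min in the control, and at 52.8 and 896 with sh1137. Irf7, induced by interferon, was still at 31.3 FPKM at 45 min in the control and reached 792 at 4 h. In the NF-kB list 9 of 10 genes were called higher at 45 min and 10 of 10 at 2 h and at 4 h, and Nfkbia, the first feedback inhibitor, went from 123 to 2241 FPKM within 45 min in the control. Of the interferon-stimulated genes, limma called 4 of 44 higher at 45 min, 39 at 2 h and 44 at 4 h.

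Beside Cxcl9, the genes typical of interferon gamma had a median sh1137 to control log2 ratio of 1.17 at 2 h, and 6 of 12 tested were at least 2-fold higher. At 4 h the median was 0.55 and 1 of 12 was, where 7.04% of all genes were. Gbp2, a guanylate-binding protein, was at 108 FPKM in the control and 282 with sh1137 at 2 h, and at 547 and 815 at 4 h. Among the interferon-stimulated genes 17 of 45 were at least 2-fold higher at 2 h and 1 was lower, with a median of 0.78, where 6.88% and 3.46% of all genes were. In untreated cells 1 of 41 was higher and 7 lower, where 5.48% and 2.55% of all genes were. In polyA RNA at 4 h 0 of 45 were higher and 6 lower, with a median of -0.58, where 3.72% and 2.99% of all genes were. Ifit2 was at 230 and 460 FPKM at 2 h and at 2775 and 2644 at 4 h in 4sU RNA. In polyA RNA at 4 h it was at 2950 in the control and 1722 with sh1137, lower as Cxcl10 and Cxcl11 were.

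Art3 shares its locus entry with Cxcl10 and Cxcl11. In the unstranded 4sU set it was at 0.32 FPKM untreated in the control, then 5.51, 21.7 and 48.5, and with sh1137 at 0.09, then 9.16, 42.2 and 68.4. It rose with Cxcl10 in both vectors, by 5.61 on the log2 scale at 4 h in limma (adjusted p = 0.0011). In the 4 stranded sets Art3 stayed at or below 0.98 FPKM, although Cxcl10 reached 199 there. In polyA RNA, which was also unstranded, Art3 stayed at or below 1.21 FPKM, although Cxcl10 reached 9611. Without strand, reads of Art3 and of genes that overlap it cannot be told apart, so its values in unstranded RNA are uncertain. Why Art3 rose in unstranded 4sU RNA and stayed low in polyA RNA was not tested.

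**Figure D5:**
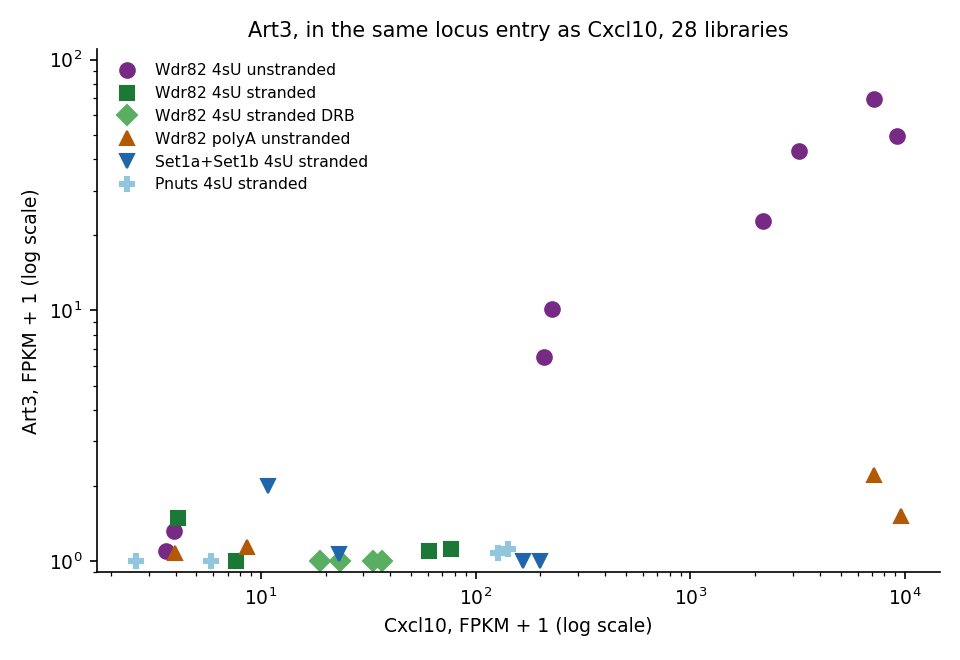
Art3 against Cxcl10, both as FPKM + 1 on log scales, in the 28 libraries, with a colour and shape for each set. Only the unstranded 4sU libraries (purple circles) leave the floor, up to 68.4 FPKM of Art3. The stranded libraries and the unstranded polyA libraries stay at or below 1.21 FPKM.

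Genes whose locus entry comes within 200 kb of a member were also measured at 4 h of LPS in the same limma fit, where Cxcl9, Cxcl10 and Cxcl11 rose by 5.13, 11.06 and 6.89. Sdad1, between Naaa and Cxcl9 on the chromosome, was at 11.2 FPKM untreated and 28.9 at 4 h in the control, and rose by 1.15 (adjusted p = 0.0031). In a merged entry of 15 genes, which does not place each of them, G3bp2 rose by 1.45 (adjusted p = 0.0022), Uso1 by 0.90 (adjusted p = 0.0067) and Rchy1 by 0.91 (adjusted p = 0.012). Nup54, a nuclear pore gene just beyond the Cxcl10 entry, rose by 1.25 at 2 h (adjusted p = 0.0079) and by 0.45 at 4 h (adjusted p = 0.047). Scarb2 had an estimate of 0.42 at 4 h (adjusted p = 0.064) and Naaa one of 0.34 (adjusted p = 0.13). Cdkl2, in the merged entry, was at 1.773 FPKM untreated and 1.855 at 4 h in the control, and Stbd1 at 0.75 and 1. Of all 16106 genes tested, 13.5% were called higher at 2 h and 25.8% at 4 h. Whether the estimates of these neighbours differ from those of the members was not tested, and not every gene in the window is named.

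The patterns of the members across the 28 libraries, each centred on its table, were most alike for Cxcl9 and Cxcl11 (Pearson r = 0.94), then for Cxcl10 and Cxcl11 (0.89) and for Cxcl9 and Cxcl10 (0.81). Over the 8 unstranded 4sU libraries alone the order turned, with 0.91 for Cxcl10 and Cxcl11, 0.90 for Cxcl9 and Cxcl11 and 0.79 for Cxcl9 and Cxcl10. Of 13600 genes, those most like Cxcl9 were Gm4841 and BC023105 (both 0.98), Serpina3f, Tgtp1 and Ptx3 (0.95 to 0.96). Tgtp1, an interferon-inducible GTPase, was at 1.34 FPKM in the control and 31.4 with sh1137 at 2 h. Because Tgtp1 was picked for its likeness to Cxcl9 in these same libraries, this difference adds no separate evidence. Closest to Cxcl10 were Mapkapk2, Gbp3, Dnaja2, Cd69 and Niacr1, all at 0.97. Closest to Cxcl11 were Mmp25, Adora2a, Il27, Nos2 and Ptx3, all at 0.98. Over the 8 libraries alone the 5 closest genes were others, except Cd69 and Mapkapk2 for Cxcl10. These libraries share tables and untreated references and mix LPS times, so the coefficients only describe them.

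Markers of other cell types were measured beside these results. The summed T and NK cell list was 0.240 to 0.901 FPKM in the controls of the unstranded 4sU set and 1.03 to 2.90 with sh1137, and Cd3e, Cd3g, Gzmb and Ifng were at 0 in all of its libraries. Of its 11 genes, 1 reached 1 FPKM. The dendritic cell list summed to 2.26 to 14.5 FPKM in controls and 4.13 to 25.1 with sh1137, with 6 of 9 genes reaching 1 FPKM. The stromal and endothelial list summed to 4.95 to 31.7 and 13.04 to 53.8, with 4 of 8. Its ranges were apart in the stranded set, at 8.04 to 9.41 in controls and 17.7 to 19.6 with sh1137. The DRB set had 6.50 to 8.16 and 10.5 to 14.1, and in polyA RNA 7.84 to 23.7 and 13.5 to 28.5 overlapped. For the hairpin in the unstranded set, limma called 2 of 4 genes of this list higher and 3 of 9 macrophage markers lower. Of all genes, 3.72% and 3.22% were so called. In polyA RNA the B cell list summed to 75.2 to 115 FPKM in controls and 28.3 to 39.0 with sh1137, with 2 of 6. In the stranded set it went the other way, with 6.85 to 6.92 in controls and 16.1 to 16.3 with sh1137. Its ranges overlapped in the unstranded 4sU and DRB sets. The T and NK cell list was also higher with sh1137 in the stranded and DRB sets, but its ranges overlapped in polyA RNA. So neither the B cell list nor the T and NK cell list had 1 direction in all Wdr82 sets. Neutrophil lists (7 of 10 genes) summed to 29.4 to 80.1 and 37.9 to 104 in the unstranded set, and erythroid and mast cell lists (1 of 7) to 1.02 to 5.46 and 1.78 to 4.79. Their part in the levels of the chemokines was not tested.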

How the data were processed

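The authors deposited 6 tables that hold, per the file headers, an FPKM for each gene and library with a lower and an upper bound and a status. The submitters' processing notes name the mm9 build and the tools TopHat 1.3.1, Cufflinks 2.1.1 and Cuffdiff 2.1.1. For the annotation, strand setting, library scaling and level of the bounds, the sources used here give nothing. Counts were not part of the tables, so no counting interval was computed, and a value listed at 0 was given no fold. Groups were read from the sample titles.

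Ratios within a table used a pseudocount of 1 FPKM. Such ratios understate the change of genes near the floor. The limma fits (limma 3.58.1, R 4.3.3) used log2(FPKM + 1) of all genes that reached 1 FPKM in a library with status OK in all, with Benjamini-Hochberg adjustment over them and a threshold of 0.05. They left 3 residual degrees of freedom in the unstranded 4sU set and 1 in the others, and were tested on simulated data. The members, the 18 gene lists and the motifs were chosen with earlier results of these data known.

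The genes named are the members, the targeted genes, genes whose locus entry comes within 200 kb, the 3 most abundant of each list, and the 5 genes most like each member among those that reached 5 FPKM. Ifnb1 was added after its values were seen, and 1 gene that the rule would name is not reported here. Alternatives were a pseudocount of 0.1, an FPKM minimum of 5 or none, centring on the median, a mean-variance trend, and leaving out each time point. Tables and figures used Python 3.11.15 with pandas 2.3.3, numpy 2.4.6 and matplotlib 3.10.9.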

Additional observations from a re-analysis of the deposited data

Results flagged for a closer look

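Cxcl11 in unstranded 4sU RNA was at least 2-fold higher with sh1137 at 2 h of LPS (log2 ratio 1.55) and at least 2-fold lower at 4 h (-1.17), a difference of 2.72 on the log2 scale. This result, also given above, was singled out because the same contrast had opposite directions at 2 times of 1 set. Each ratio rests on 1 pair of libraries, the deposited bounds of both pairs overlap, and the difference was not tested.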

How the results depend on the processing

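No paired analysis was possible because the labels carry no replicate numbers and each condition has 1 library per set; the limma fits compare the vectors within conditions. Among the limma results for the members, 157 alternatives kept direction and call, and among the single ratios 114 stayed within the range that the deposited bounds allow. With a pseudocount of 0.1 FPKM the limma effect of 2 h LPS on Cxcl9 was 6.81 (adjusted p = 0.036), and the polyA hairpin estimate of Cxcl11 was 0.27 in place of -0.22. With a mean-variance trend Cxcl10 passed limma in 4 sets: LPS 3.61 in the stranded, 3.53 in the Set1a+Set1b and 5.11 in the Pnuts set, and DRB -0.73. Without the FPKM filter the polyA LPS effects were 10.47 for Cxcl10, 7.71 for Cxcl11 and 7.36 for Cxcl9 and did not pass, with 0 genes called in place of 4381. Leaving out 1 condition of the unstranded set in turn, the hairpin estimate ranged from -0.12 to 0.18 for Cxcl10 and from -0.28 to 0.63 for Cxcl11, both negative without 2 h, and from 0.87 to 2.103 for Cxcl9.

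Single LPS ratios of genes near 0 grew with a pseudocount of 0.1. In the unstranded control Cxcl9 and Cxcl11 had 4.81 and 6.57 at 2 h and 7.02 and 10.15 at 4 h. With sh1137 they had 8.81 and 8.86 at 2 h and 9.78 and 9.65 at 4 h, and Cxcl11 3.65 at 45 min. The Cxcl9 step from 45 min to 2 h was 3.804 in the control and 8.30 with sh1137. Cxcl11 with sh1137 at 1 h had 2.67. In polyA RNA Cxcl9 and Cxcl11 had 9.85 and 10.92 in the control and 9.68 and 8.96 with sh1137.

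The hairpin calls of the unstranded set numbered 1117, but 1762 with a trend and 0 to 2 without 1 condition. LPS calls at 45 min went from 693 to 198 without 2 h and 296 without 4 h, and those at 2 h from 3501 to 2294 without 45 min. DRB calls went from 4523 to 0 with a pseudocount of 0.1. Sets with 0 calls had, with a trend, 162 for LPS and 505 for the hairpin (stranded), 467 and 10 (Set1a+Set1b), 295 and 12 (Pnuts), and 17 for the hairpin (DRB set). With a minimum of 5 FPKM they had 1 and 17 (stranded), 140 for LPS (Set1a+Set1b) and 11 for LPS (Pnuts), and with no filter 7 for LPS (Set1a+Set1b). Leaving out a condition of a set with 2 leaves no residual degrees of freedom and was not run. Without counts, the depth behind levels near 0 is unknown. The causes of these changes were not tested.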

Other observations

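Other CXC chemokines were measured in the same unstranded 4sU RNA. Cxcl1 and Cxcl2, neutrophil attractants that bind CXCR2, were near their highest levels at 45 min of LPS. Cxcl2 was at 4380 FPKM at 45 min, 1698 at 2 h and 3882 at 4 h in the control, and at 3947, 1667 and 1745 with sh1137. Cxcl1 was at 2073, 2062 and 1615 FPKM in the control and at 2925, 2333 and 883 with sh1137. Both rose at each time in limma, Cxcl1 by 8.21 at 45 min (adjusted p = 0.0031) and 7.17 at 4 h (adjusted p = 0.0011). Of the 8 genes of this list that were tested, 4 were called higher at 45 min, 5 at 2 h and 4 at 4 h, beside 2.97%, 13.5% and 25.8% of all genes. The sh1137 to control ratio was higher at 2 h than at 4 h for 7 of 8, against 53.3% of 13256 genes tested at both times.

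Cxcl3 had the widest vector difference before LPS among the 3 most abundant genes of that list, at 0.20 FPKM in the control and 4.76 with sh1137. At 45 min it was at 10.2 and 77.7 FPKM, at 2 h at 165 and 400, and at 4 h at 240 and 150. Over the 4 conditions its hairpin effect was 1.42 in limma and did not pass (adjusted p = 0.21).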
